A study of Homo sapiens with 4 samples.

Results

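Transcripts of the HSP90 chaperones and their co-chaperones were examined in MDA-MB-231, an established human cell line from a triple-negative breast cancer. The 10 genes were chosen by name: the 4 human HSP90 paralogs, HSP90AA1 and HSP90AB1 of the cytosol, HSP90B1 of the endoplasmic reticulum (ER) and TRAP1 of the mitochondria, and the co-chaperones CDC37, STIP1, AHSA1, PTGES3, FKBP4 and CHORDC1. The choice was made with earlier results of these data known. All 10 were found among the 20263 Ensembl gene IDs counted, and all 10 passed the filter on low counts, which kept 13612 genes. One group of 2 libraries came from cells given the solvent DMSO. The other 2 came from cells given RB-1 for 24 h, and the series title describes RB-1 as a derivative of the CDK4/6 inhibitor ribociclib. The labels state no dose of RB-1, and every library came from the same cell line with no genetic change named. Library totals were between 34122874 and 37754168 counts. Nothing in the labels says that the 2 libraries of a group were grown as separate cultures, and p-values here reflect no more than how far these samples spread, which may be of technical origin.

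HSP90 is a dimeric chaperone that uses ATP to clamp onto partly folded client proteins, among them many kinases, steroid receptors and transcription factors. Co-chaperones set its cycle: some bring clients, some hold the clamp open, some speed its ATPase and some stabilise the closed state. Heat shock factor 1 (HSF1), which HSP90 itself holds in check, raises transcription of the cytosolic chaperones through heat shock elements, while the ER paralog answers to the unfolded protein response. Tumour cells are known to depend on this machinery to keep mutated and overproduced client proteins folded.

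After RB-1 the inducible cytosolic paralog HSP90AA1 was 8.93-fold lower, the ER paralog HSP90B1 3.36-fold lower and the co-chaperone CHORDC1 5.99-fold lower, and the adaptor STIP1 was 1.73-fold lower. In all, 4 of the 10 members fell with an adjusted p under 0.05 (edgeR's quasi-likelihood test), against 15.8% of all tested genes. None rose, against 12.5% of all tested genes, and none was higher at an unadjusted p under 0.05 or with DESeq2 or limma-voom. The other 6 members, the constitutive paralog HSP90AB1 among them, did not pass. In 7 members the RB-1 libraries both lay below both DMSO libraries, which held for 34.3% of tested genes. No member had both RB-1 libraries above both DMSO libraries, a pattern seen in 35.3% of tested genes. The median log2 fold change was -0.44 over the members and 0.01 over all tested genes. Because the members were chosen with earlier results of these data known, these counts describe them and are no independent test. With library totals in place of the TMM scaling factors the median over all genes rose to 0.21 and the split of calls went from 1702 higher and 2149 lower genes to 2015 and 1381, while HSP90AA1, HSP90B1 and CHORDC1 still fell. CPM are counts scaled to the size of each library. Log2 fold changes are RB-1 over DMSO throughout, with their standard error (SE), and adjusted p-values are Benjamini-Hochberg values over all tested genes from edgeR's quasi-likelihood test. In bulk RNA, fewer cells of a type and less RNA per cell cannot be told apart.

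**Figure D1:**
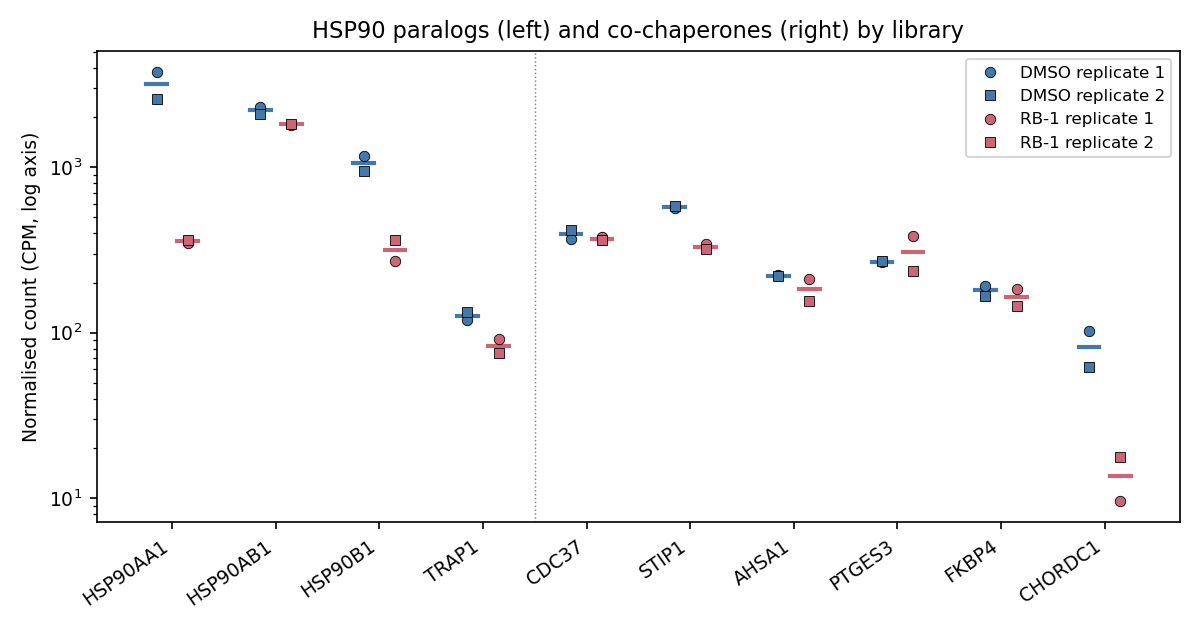
Normalised counts of the 10 members in each library, as CPM on a log axis, with DMSO in blue and RB-1 in red, a circle or square for each replicate and a bar for the group mean (n = 2 each). HSP90AA1, HSP90B1, STIP1 and CHORDC1 are lower in RB-1, while the RB-1 and DMSO values of CDC37, PTGES3 and FKBP4 overlap.

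Heat shock and ER stress elements, through which HSP90 genes are known to be induced, were looked for at the members' starts, and the matches are shown because they set the members apart by sequence. Windows of 300 bases around annotated starts, 250 before and 50 after, came from RefSeq (GRCh38.p14). Of the 10 members 9 were matched, with 14 listed starts in all, and FKBP4 was not. A heat shock element is built of inverted GAA and TTC units 2 bases apart. A run of 3 units, searched on both strands as GAANNTTCNNGAA and TTCNNGAANNTTC, stood in 3 of the 14 windows and in 0.490% of all 35116 windows in the table. Those 3 windows belong to HSP90AA1, HSP90AB1 and CHORDC1. The ER stress response element, searched on both strands as CCAAT and CCACG with 9 bases between them, stood in 1 of the 14, that of HSP90B1, and in 0.0769% of all windows. In the stretches below capitals mark the units or elements, and each stretch is written 5′ to 3′ on the strand of its gene.
HSP90AA1: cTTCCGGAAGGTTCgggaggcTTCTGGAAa
HSP90AB1 upstream run: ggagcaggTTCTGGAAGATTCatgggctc
HSP90AB1 downstream run: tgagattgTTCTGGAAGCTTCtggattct
CHORDC1: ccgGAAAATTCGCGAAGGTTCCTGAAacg
HSP90B1 upstream element: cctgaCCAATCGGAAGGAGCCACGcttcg
HSP90B1 downstream element: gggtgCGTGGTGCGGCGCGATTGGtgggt

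The HSP90AA1 stretch, chr14:102087104-102087133 on the minus strand, belongs to the second of its listed starts. Its run of 3 units lies at positions -88 to -76, with a further pair of units at -68 to -61. Positions are counted back from the start, whose first base is 1. The window of the first HSP90AA1 start held no run. The HSP90AB1 runs, chr6:44247770-44247798 and chr6:44247823-44247851 on the plus strand, belong to the last of its 3 listed starts. They lie at positions -165 to -153 and -112 to -100, and the windows of its other 2 starts held no run. In CHORDC1, at chr11:90223084-90223112 on the minus strand, 5 units follow one another without a gap other than the spacing of 2 bases, from position -60 to -38. The HSP90B1 elements are chr12:103930211-103930239 and chr12:103930316-103930344 on the plus strand. The second is the reverse complement form, CGTGG to ATTGG. A pair of units (GAANNTTC or TTCNNGAA) is far more common, with 13.5% of all windows holding at least 1 such pair. STIP1 had 1 such pair, TTCCAGAA, at positions 14 to 21 of the second of its 2 listed starts. Outside its run of units, the CHORDC1 window held further pairs at positions -205 to -198 and -23 to -16. The CCAAT box alone, on either strand, stood in 34.6% of all windows and in 3 of the 14, those of HSP90AA1 (the first start), HSP90B1 and STIP1 (the second). The windows of TRAP1, CDC37, AHSA1 and PTGES3 held no match to any of these motifs. These matches describe the sequence and show no binding. The 3 members with a run of heat shock units had log2 fold changes of -3.16 (HSP90AA1), -0.29 (HSP90AB1) and -2.58 (CHORDC1).

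**Figure D2:**
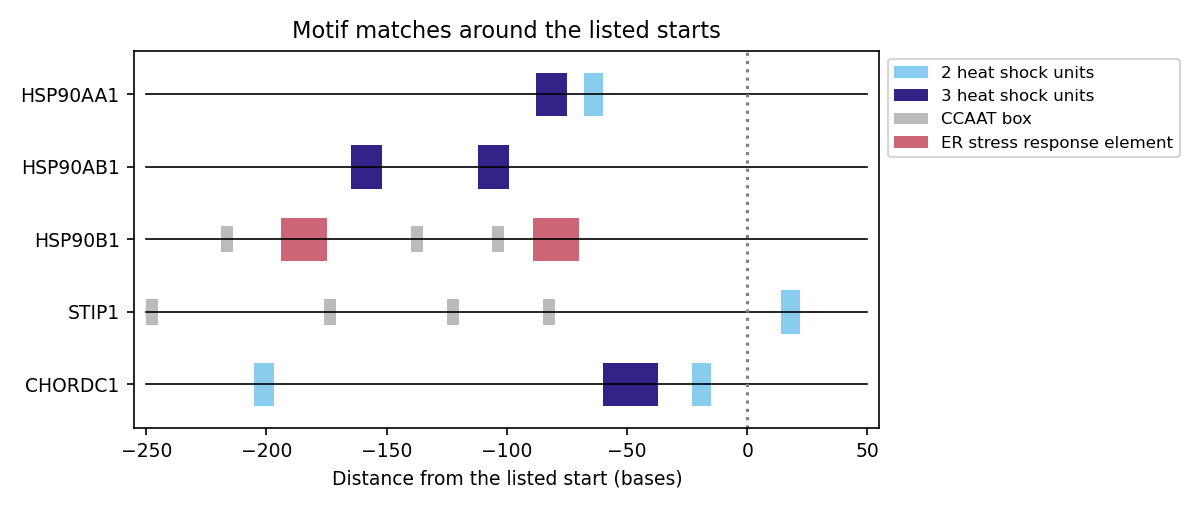
Motif matches between 250 bases before and 50 bases after a listed start of each of 5 members. The start drawn is the second listed for HSP90AA1 and STIP1 and the last listed for HSP90AB1. It is shown as a dotted line at 0, with boxes drawn to scale along the x axis in bases. Runs of 3 heat shock units (dark blue) appear in HSP90AA1, HSP90AB1 and CHORDC1, and ER stress response elements (red) in HSP90B1, where 2 are seen.

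Of the cytosolic paralogs, HSP90AA1 (ENSG00000080824) encodes the stress-inducible HSP90 alpha. It had 131029 and 85243 counts in DMSO replicates 1 and 2, and 13135 and 13628 in RB-1 replicates 1 and 2. Scaled to CPM, these were 3756 and 2602 in DMSO against 348 and 364 in RB-1. The RB-1 libraries differed little from each other, and the lower DMSO library was still far above them. The DMSO mean was 3179 ± 816 CPM and the RB-1 mean 356 ± 11.2 CPM (SD, n = 2 each), a log2 fold change of -3.16 ± 0.28 SE (edgeR adjusted p = 0.000139). By p it ranked 27 among the 13612 tested genes. With any 1 library left out the log2 fold change stayed between -3.38 and -2.87 and passed.

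HSP90AB1 (ENSG00000096384) encodes the constitutive HSP90 beta, which most cells hold in large amounts without stress. It had 2321 and 2098 CPM in DMSO and 1792 and 1835 CPM in RB-1. Both RB-1 libraries lay below both DMSO libraries, by a small margin. The log2 fold change was -0.29 ± 0.24 SE and did not pass (edgeR adjusted p = 0.388).

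The balance between these paralogs was also read within each library, where no scaling factor enters. HSP90AA1 made up 61.8% of the summed HSP90AA1 and HSP90AB1 counts in DMSO replicate 1 (95% Wilson interval 61.6 to 62.0) and 55.4% in DMSO replicate 2 (55.1 to 55.6). It made up 16.3% in RB-1 replicate 1 (16.0 to 16.5) and 16.6% in RB-1 replicate 2 (16.3 to 16.8). These intervals treat every read as independent and leave out the spread between libraries. Reads amplified by PCR are not independent molecules, so the intervals may be too narrow even for counting error. The mean share was 58.6 ± 4.56% for DMSO and 16.4 ± 0.204% for RB-1 (SD, n = 2 each), a difference of -42.2 percentage points that was many times the spread within either group. A two-sided exact permutation test gave p = 0.3333, the smallest that 2 against 2 libraries allow. On a log2 scale the ratio of HSP90AA1 to HSP90AB1 counts moved from 0.50 ± 0.27 to -2.35 ± 0.02. Per kilobase of transcript the mean share of HSP90AA1 was 51.9 ± 4.69% for DMSO and 13.0 ± 0.168% for RB-1 (SD, n = 2 each). The cytosolic paralogs are similar in sequence and have processed pseudogene copies, and the treatment of reads that match several places is not stated here, so the split between them is uncertain to that extent. About 3.75% of HSP90AA1 exon bases overlap WDR20 on the opposite strand, and HSP90AB1 shares none.

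HSP90B1 (ENSG00000166598) encodes GRP94, the ER paralog, whose clients include integrins and Toll-like receptors. It had 1176 and 951 CPM in DMSO replicates 1 and 2, and 271 and 362 CPM in RB-1 replicates 1 and 2. Every RB-1 value was well below every DMSO value. The log2 fold change was -1.75 ± 0.25 SE (edgeR adjusted p = 0.00114), and it lay between -1.97 and -1.55 and passed with any 1 library left out. About 7.6% of HSP90B1 exon bases are shared with other annotated genes. TRAP1 (ENSG00000126602) encodes the mitochondrial paralog. It had 120 and 133 CPM in DMSO and 91.6 and 75.4 CPM in RB-1, so the groups did not overlap. Its log2 fold change of -0.60 ± 0.24 SE did not pass (edgeR adjusted p = 0.0857). TRAP1 is uncertain because 29.3% of its exon bases overlap DNASE1 on the opposite strand and whether the counting used strand is not stated in the labels.

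Levels of the 4 paralogs can be compared per length, as CPM per kilobase of the longest annotated transcript of each gene. In DMSO the order was HSP90AA1 at 906 ± 232, HSP90AB1 at 826 ± 58.9, HSP90B1 at 351 ± 52.4 and TRAP1 at 54.8 ± 3.89 CPM per kilobase (SD, n = 2 each). The first 2 did not differ beyond their spread: HSP90AA1 was the higher in DMSO replicate 1 and HSP90AB1 the higher in DMSO replicate 2. In RB-1 the order was HSP90AB1 at 678 ± 11.3, HSP90B1 at 104 ± 21.2, HSP90AA1 at 101 ± 3.19 and TRAP1 at 36.2 ± 4.95 CPM per kilobase. Here HSP90B1 and HSP90AA1 did not differ beyond their spread. The summed level of the 4 genes was 2378 and 1897 CPM per kilobase in DMSO and 898 and 942 in RB-1. HSP90AB1 formed 36.5% and 41.4% of that sum in the DMSO libraries and 74.6% and 72.9% in the RB-1 libraries. The share of HSP90AA1 went from 42.0 ± 4.19% to 11.0 ± 0.0213%, that of HSP90B1 from 16.4 ± 0.162% to 11.3 ± 1.93%, and that of TRAP1 from 2.61 ± 0.597% to 3.94 ± 0.670% (SD, n = 2 each). The TRAP1 share carries the overlap with DNASE1 named above.

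**Figure D3:**
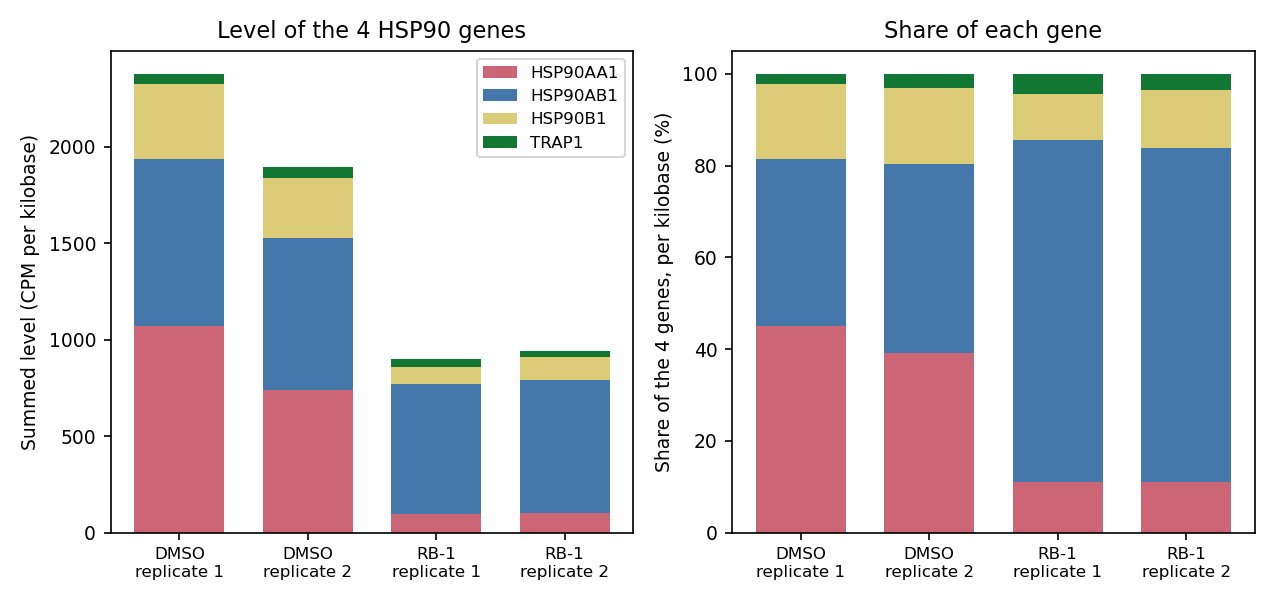
Summed level of the 4 HSP90 genes in CPM per kilobase of the longest annotated transcript (left) and the share of each gene in that sum in percent (right), 1 bar per library. The sums in RB-1, 898 and 942, are below those in DMSO, 2378 and 1897, and HSP90AB1 forms the largest share in RB-1.

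Among the co-chaperones, CHORDC1 (ENSG00000110172), a zinc-binding CHORD protein that binds HSP90, fell most. It had 3561 and 2024 counts in DMSO replicates 1 and 2, and 364 and 663 counts in RB-1 replicates 1 and 2. These correspond to 102 and 61.8 CPM against 9.65 and 17.7 CPM. The groups were far apart, although libraries within each group also differed. The log2 fold change was -2.58 ± 0.38 SE (edgeR adjusted p = 0.00164), between -3.08 and -2.18 and past the threshold with any 1 library left out.

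STIP1 (ENSG00000168439), also called HOP, holds HSP70 and HSP90 together so that a client can pass between them. Its values were 565 and 581 CPM in DMSO and 342 and 321 CPM in RB-1, with close agreement within each group. The log2 fold change of -0.79 ± 0.22 SE passed with all libraries (edgeR adjusted p = 0.0219). With 1 library left out it did not pass, whether that was DMSO replicate 1 (-0.81, adjusted p = 0.0794) or DMSO replicate 2 (-0.75, 0.131), or else RB-1 replicate 1 (-0.83, 0.0701) or RB-1 replicate 2 (-0.74, 0.0557), nor with library totals in place of TMM factors (-0.59, 0.0797), all by edgeR. The size of the change moved little with any 1 library left out, and the change was smaller with library totals. The call was lost in each case.

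The other 4 co-chaperones did not pass. AHSA1 (ENSG00000100591), which speeds the ATPase of HSP90, had 224 and 219 CPM in DMSO and 212 and 156 CPM in RB-1 (-0.27 ± 0.24 SE, edgeR adjusted p = 0.431). CDC37 (ENSG00000105401), which brings kinases to HSP90, had 371 and 421 CPM in DMSO and 377 and 364 CPM in RB-1 (-0.09 ± 0.22 SE, edgeR adjusted p = 0.775). The CDC37 groups overlapped, while those of AHSA1 were separated only narrowly. FKBP4 (ENSG00000004478), the immunophilin FKBP52 that works with steroid receptors, had 192 and 168 CPM in DMSO and 184 and 146 CPM in RB-1 (-0.13 ± 0.24 SE, edgeR adjusted p = 0.720). About 11.4% of its exon bases are shared with other annotated genes. PTGES3 (ENSG00000110958), or p23, which stabilises the closed clamp, had 266 and 269 CPM in DMSO. Its RB-1 libraries lay on either side of these, at 382 CPM in replicate 1 and 237 CPM in replicate 2 (0.21 ± 0.26 SE, edgeR adjusted p = 0.580). The sign of the change was not stable: it was above 0 for CDC37 with upper-quartile factors, library totals or without DMSO replicate 2, above 0 for FKBP4 with library totals or without RB-1 replicate 2, and below 0 for PTGES3 without RB-1 replicate 1.

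Set against the summed counts of HSP90AA1 and HSP90AB1 in the same library, 5 of the 6 co-chaperones had a higher ratio in both RB-1 libraries than in both DMSO libraries. The log2 ratio of PTGES3 to cytosolic HSP90 moved by 1.47, from -4.32 ± 0.28 to -2.85 ± 0.52, that of CDC37 by 1.21, that of FKBP4 by 1.17, that of AHSA1 by 1.02 and that of STIP1 by 0.51. For CHORDC1 it moved by -1.30, from -6.07 ± 0.25 to -7.37 ± 0.59 (SD, n = 2 each). The two-sided exact permutation p was 0.3333 for each of these 6 ratios, the smallest possible and so not below any threshold after adjustment. The denominator fell from 5388 ± 974 to 2170 ± 41.4 CPM, and all 6 ratios share it.

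**Figure D4:**
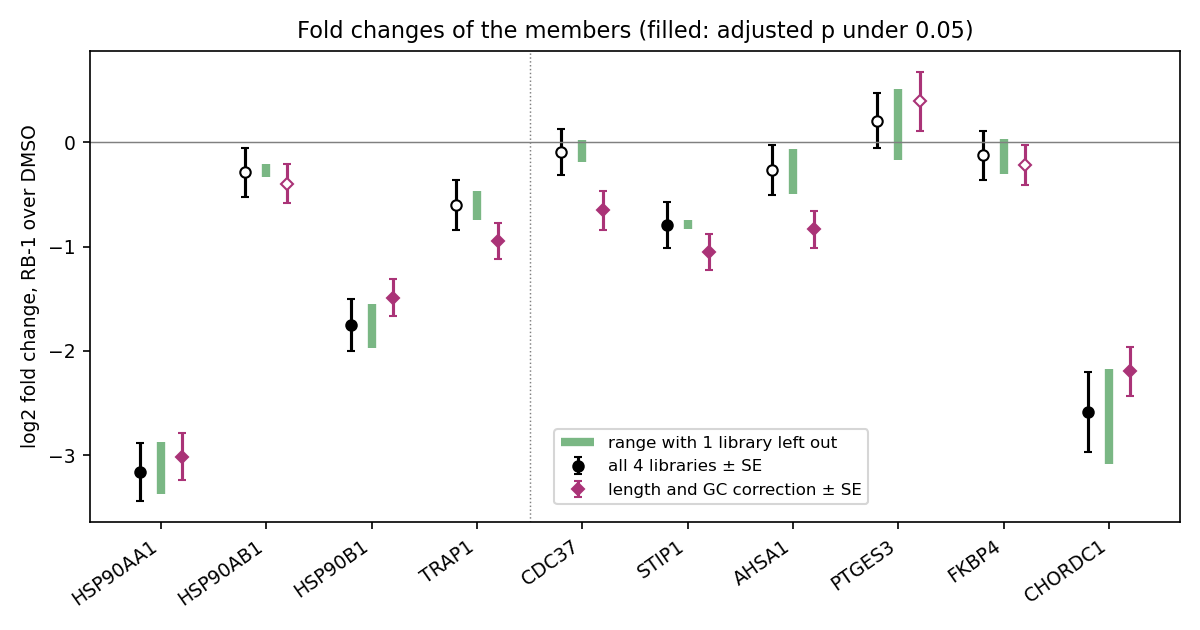
Log2 fold change of each member, RB-1 over DMSO, with all 4 libraries (circles ± SE), as the range over fits with 1 library left out (green bars), and after correcting for transcript length and GC content (diamonds ± SE). Filled symbols have an adjusted p under 0.05, which holds for 4 members in the first fit and 7 with the correction.

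Fold changes in these libraries followed transcript length over all genes, and the members were set against that pattern. In the length quartile of tested genes with the shortest transcripts the median log2 fold change was 0.45, with 780 genes higher and 181 lower, and in the quartile with the longest it was -0.46, with 173 higher and 1041 lower. The RB-1 libraries differed from each other in the same way, with a median log2 ratio of replicate 1 to replicate 2 of 0.26 in the shortest quartile and -0.30 in the longest. HSP90AA1, HSP90AB1, HSP90B1, STIP1 and PTGES3 lie in the second quartile, from 2365 to 3653 bases, where the median was 0.13 and 375 of 3400 genes fell. CHORDC1 and FKBP4 lie in the third quartile, where the median was -0.09, and TRAP1, CDC37 and AHSA1 in the shortest. When length and GC content were corrected for, 7 of the 10 members fell and none rose, where 15.6% of the 13596 genes in that fit fell and 16.5% rose. The 4 called before remained, at -3.01 (HSP90AA1), -1.49 (HSP90B1), -2.20 (CHORDC1) and -1.05 (STIP1). The short genes TRAP1 (-0.95, edgeR adjusted p = 0.00633), AHSA1 (-0.84, 0.00995) and CDC37 (-0.65, 0.0300) passed as well. None of them had passed before the correction. For CDC37 the uncorrected groups overlapped and the sign was not stable, as given above. HSP90AB1 stayed at -0.40 (edgeR adjusted p = 0.137), and neither PTGES3 (0.39) nor FKBP4 (-0.21) passed. The part of transcript length in the uncorrected values was not tested further.

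The rest of the pathway was read from lists written for this purpose, by counts and with no set test. These lists, too, were written with earlier results of these data known. Over all tested genes 15.8% fell and 12.5% rose, and each list below is to be set against these shares. Among 24 other HSP90 co-chaperones and cofactors, 2 rose, 3 fell and 19 did not pass, with a median log2 fold change of -0.12, so that the shares called were near or under those over all genes. The 3 with the smallest p moved in different directions. FKBP8, a membrane-anchored immunophilin of mitochondria, had 126 and 115 CPM in DMSO and 357 and 265 CPM in RB-1 (1.37 ± 0.24 SE, edgeR adjusted p = 0.00335). RPAP3, the HSP90-binding subunit of the R2TP complex, had 44.8 and 36.7 CPM in DMSO and 8.14 and 14.4 CPM in RB-1 (-1.85 ± 0.34 SE, edgeR adjusted p = 0.00420). NUDCD2, a NudC domain protein, had 38.0 and 25.1 CPM in DMSO and 101 and 71.7 CPM in RB-1 (1.45 ± 0.31 SE, edgeR adjusted p = 0.00769). Without DMSO replicate 2 only 1 gene of this list rose and 1 fell, and NUDCD2 did not pass (1.21, edgeR adjusted p = 0.0892).

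Of 19 other heat shock genes 18 were tested, and 10 fell, 1 rose and 7 did not pass, with a median of -0.84 (all genes: 15.8% fell, 12.5% rose, median 0.01). HSPH1, the HSP110 nucleotide exchange factor, had 331 and 222 CPM in DMSO and 30.1 and 45.5 CPM in RB-1 (-2.87 ± 0.31 SE, edgeR adjusted p = 0.000332). DNAJA1, a J-domain partner of HSP70, had 468 and 406 CPM in DMSO and 95.5 and 129 CPM in RB-1 (-1.96 ± 0.25 SE). HSPA4L, another HSP110 relative, had 114 and 81.5 CPM in DMSO and 19.9 and 35.8 CPM in RB-1 (-1.81 ± 0.34 SE), and with the length and GC correction it was at -0.79 ± 0.20 SE (edgeR adjusted p = 0.0179). Not every heat shock gene moved with them in the uncorrected fit. The small chaperone HSPB1 was at 0.10 ± 0.22 and the J-domain gene DNAJB1 at 0.35 ± 0.25, named after their values were seen, and neither passed. With the length and GC correction HSPB1 was at -0.54 ± 0.19 SE (edgeR adjusted p = 0.0617) and DNAJB1 at -0.01 ± 0.19 SE (0.968). Neither passed there. Leaving out DMSO replicate 1 or DMSO replicate 2 left 6 and 5 that fell, leaving out the first or second RB-1 replicate left 7 and 6, library totals gave 5 and a 2-fold minimum gave 6. Over all genes the number that fell was 2149 with every library, 1204 and 1091 without the first or second DMSO replicate, and 1119 and 2413 without the first or second RB-1 replicate. The single gene that rose, HSPE1, was also named after its value was seen (0.87) and did not pass without DMSO replicate 2, without RB-1 replicate 1 or with the length and GC correction (0.27, edgeR adjusted p = 0.388).

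Of the heat shock transcription factors and their regulators 5 of 6 were tested and none passed edgeR's, DESeq2's or limma-voom's test, with 1 gene lower and 0 higher at an unadjusted p under 0.05 in edgeR. HSF1 had 121 and 170 CPM in DMSO and 98.5 and 89.8 CPM in RB-1 (-0.62 ± 0.25 SE, edgeR adjusted p = 0.0890). HSF2 had 17.3 and 14.4 CPM in DMSO and 5.59 and 12.2 CPM in RB-1 (-0.83 ± 0.39 SE, edgeR adjusted p = 0.131). HSF4 was at 0.72 ± 0.38 (edgeR adjusted p = 0.180), with 31.4% of its exon bases shared with a neighbouring gene. With the length and GC correction HSF1 passed as lower (-0.86, edgeR adjusted p = 0.0154) and HSBP1, a small protein that binds HSF1, as higher (1.23, edgeR adjusted p = 0.0244), the latter named after its value was seen. Without RB-1 replicate 2 HSF2 passed (-1.50, edgeR adjusted p = 0.0184).

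Of 14 other ER chaperones tested 3 fell (15.8% of all genes did), none rose (also none at an unadjusted p under 0.05, with DESeq2 or with limma-voom, beside edgeR's test) and 11 did not pass, with a median of -0.03. DNAJC3, an ER J-domain protein, was at -1.16 ± 0.33 SE (edgeR adjusted p = 0.0251), HYOU1, the ER HSP110, at -0.73 ± 0.23 SE (0.0346) and SEL1L, of the ER degradation complex, at -0.998 ± 0.32 SE (0.0442). None of these 3 passed when either DMSO replicate was left out, without RB-1 replicate 1 or with library totals, and upper-quartile scaling also ended the calls of HYOU1 and SEL1L, as the loss of RB-1 replicate 2 did for HYOU1. Without RB-1 replicate 2, 1 gene of this list rose. With the length and GC correction DNAJC3 was at -0.59 (edgeR adjusted p = 0.0633) and SEL1L at -0.17 (0.541), while HYOU1 passed at -0.77 (0.0143). CALR, named after its value was seen, also passed as lower with that correction (-0.60, edgeR adjusted p = 0.0370). Of 14 mitochondrial chaperones and proteases 3 rose, 2 fell and 9 did not pass, with a median of 0.04 (all genes: 12.5% rose, 15.8% fell). HSPD1, 1 of those that fell, and HSPE1, 1 of those that rose, were also counted among the other heat shock genes. The mitochondrial HSP70 HSPA9 was at -0.99 ± 0.23 SE (edgeR adjusted p = 0.0111) and the chaperonin HSPD1 at -0.87 ± 0.24 SE (0.0214), while the protease LONP1 was at 0.76 ± 0.23 SE (0.0312). Each lost its call when either DMSO replicate was left out, and also without RB-1 replicate 1, and HSPD1 with library totals too. With the length and GC correction none of this list rose and 3 fell. CLPP, named after its value was seen, had not passed before and was lower there (-1.32, edgeR adjusted p = 0.00703). More genes of this list rose without RB-1 replicate 2 than with every library.

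Transcripts of 29 known HSP90 clients, kinases and transcription factors, were also counted, with HSF1 listed here as well as among the heat shock factors. Of these 2 rose, 5 fell and 22 did not pass, with a median of -0.32, and the share that fell was near the 15.8% of all genes while the share that rose was under their 12.5%. HIF1A, the oxygen-regulated transcription factor, had 658 and 697 CPM in DMSO and 81.2 and 124 CPM in RB-1 (-2.72 ± 0.27 SE, edgeR adjusted p = 0.000251). The receptor kinase MET was at -1.38 ± 0.30 SE (edgeR adjusted p = 0.00817) and the kinase BRAF at -1.40 ± 0.33 SE (0.0112). MET did not pass without DMSO replicate 1 or RB-1 replicate 1, and BRAF, whose longest transcript has 9578 bases, not without either DMSO replicate nor with the length and GC correction (-0.46, edgeR adjusted p = 0.114). The clients that fell numbered 3 with library totals or upper-quartile factors and 4 with the length and GC correction. They numbered 6 with other count filters, DESeq2 or limma-voom. Fewer clients fell without either DMSO replicate or without RB-1 replicate 1, and more clients fell without RB-1 replicate 2. Those that rose numbered 1 without DMSO replicate 1 and 0 without DMSO replicate 2 or RB-1 replicate 1. HSP90 acts on client proteins, which were not measured here.

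**Figure D5:**
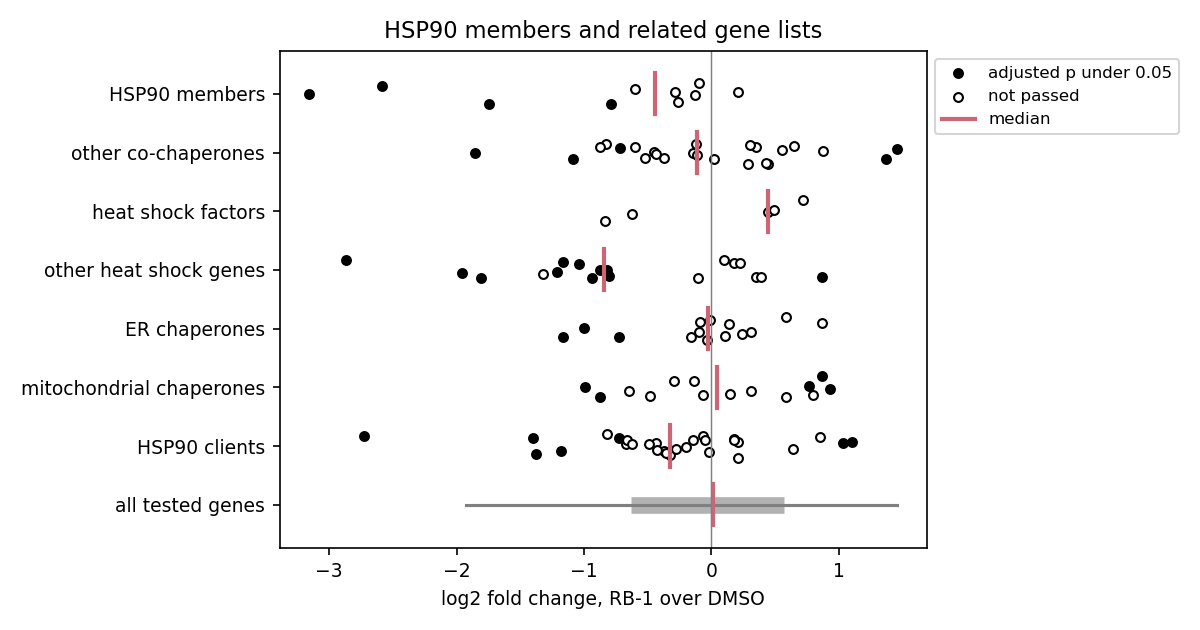
Log2 fold changes, RB-1 over DMSO, of every tested gene in the members and 6 related lists, 1 point per gene (filled: adjusted p under 0.05), with the median of each list as a red line. For all tested genes the thick bar spans the 25th to 75th percentile and the thin line the 5th to 95th, and the medians of the members (-0.44) and the other heat shock genes (-0.84) lie below the all-gene median of 0.01.

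Genes with the profile most like a cytosolic paralog were found among 6736 tested genes that averaged 1000 counts or more, by the Euclidean distance between log2 CPM values centred on each gene's mean over the 4 libraries. The nearest to HSP90AA1 were KIF20B, a mitotic kinesin (distance 0.11, log2 fold change -3.10 ± 0.29), MYCBP2, a ubiquitin ligase (0.11, -3.18 ± 0.32), and NIPBL, the cohesin loader (0.16, -3.08 ± 0.30). Their longest transcripts have 6419, 14736 and 10435 bases, against 3510 for HSP90AA1. The nearest to HSP90AB1 were ARL6IP1 (0.01), the read-through gene PPAN-P2RY11 (0.03) and DNAJC14 (0.04), none of which passed. With 4 libraries such a distance describes little more than the size of the change and its spread.

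Reads of near copies could bear on the values of the members, but how reads were shared between such genes was not measured. Of 16 HSP90 and PTGES3 pseudogenes and read-through neighbours looked for, 2 were matched, namely PTGES3L, a gene related to PTGES3, and its read-through with AARSD1. PTGES3L-AARSD1 had 29 and 17 counts in DMSO and 1225 and 537 counts in RB-1 (log2 fold change 5.10 ± 0.51, edgeR adjusted p = 0.000307), and PTGES3L had 9 and 14 against 65 and 39 (2.01 ± 0.58, edgeR adjusted p = 0.0262). PTGES3L did not pass when either DMSO replicate or RB-1 replicate 1 was left out, or with DESeq2 (adjusted p = 0.0523). Both genes are uncertain: 96.0% of the exon bases of PTGES3L-AARSD1 are shared with other genes, mostly AARSD1, and 35.7% of those of PTGES3L with the read-through gene.

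The cell line was checked against markers. Of 7 genes high in MDA-MB-231, among them VIM, CD44 and AXL, all were abundant, with a sum between 10223 and 11853 CPM over the libraries; 2 of them, ANXA1 and CAV1, were lower in RB-1. CDH1 and ESR1 had under 1 CPM in every library, while KRT18, which the list held as low, had 165 to 311 CPM. Also held as low, GATA3 had 9.69 and 21.9 CPM in DMSO and 2.25 and 3.18 CPM in RB-1 (edgeR adjusted p = 0.00329), PGR had under 2 CPM in every library and was lower in RB-1 (-1.91, edgeR adjusted p = 0.0221), and EPCAM had 9.46 to 13.5 CPM and did not pass. The 9 markers of blood, vessel, stroma, liver and muscle summed to between 6.76 and 10.2 CPM, and CD3E and DCN had 0 counts in all 4 libraries.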

How the data were processed

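The authors deposited raw counts per gene with 1 column per library and no pooling, for 4 libraries of MDA-MB-231 RNA (2 DMSO, 2 RB-1). Libraries were made from total RNA with an mRNA kit, per the labels' protocols. The labels name no aligner, counter or strand setting. The submitters' processing notes list the mouse builds GRCm38 and mm10 while all IDs are human, so no gene coordinates are printed; promoter coordinates are those of RefSeq's own table. Symbols were matched for 20148 of 20263 IDs.

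Genes were filtered with filterByExpr and scaled with TMM factors (0.868 to 1.10) in edgeR 4.0.16 (R 4.3.3). RB-1 was compared with DMSO by the quasi-likelihood F test with robust estimation, two-sided, with a Benjamini-Hochberg adjusted p under 0.05 over 13612 genes. There were 2 residual degrees of freedom per gene and the common biological coefficient of variation was 0.251. CPM use the TMM-scaled library sizes. The standard error is the log2 fold change divided by the square root of F. The script was tested on simulated data. Replicates differed far beyond sampling noise (chi-square per degree of freedom 255 in DMSO, 127 in RB-1). No library was therefore taken as a copy of another, and all were kept. Transcript lengths and exon overlaps came from GENCODE release v29 (longest transcript per gene), and the length and GC correction used smooth offsets per library (mgcv 1.9.3). Alternatives were RLE, upper-quartile and no factors, other count filters, DESeq2 1.42.0, limma-voom (limma 3.58.1), a replicate block, a 2-fold minimum and each library left out. With 1 library left out, the lone library of its group is assumed to vary like the other group. Members and lists were chosen with earlier results of these data known. Named were all members, the 3 genes with the smallest p in each list and the 3 most like each cytosolic paralog; others are marked.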

Additional observations from a re-analysis of the deposited data

How the results depend on the processing

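Of the 10 members, HSP90AA1, HSP90B1 and CHORDC1 were lower and passed in all 13 alternatives run. The number of members called lower was 4 with RLE or upper-quartile factors, other count filters, DESeq2, limma-voom and the replicate block. It was 7 with the length and GC correction, 3 with library totals alone and 3 with a 2-fold minimum. STIP1 was the member lost in these smaller counts, and its call was also lost with any 1 library left out. No member was higher under any of these settings. Over all tested genes, library totals alone gave 1381 lower genes, upper-quartile factors gave 2134 higher and 1815 lower (median log2 fold change 0.12), and leaving out 1 library gave 1091 to 2413 lower and 383 to 1934 higher. CDC37 changed sign with upper-quartile factors (0.0084) and library totals (0.11), and with 1 library left out it ran from -0.18 to 0.022. FKBP4 changed sign with library totals (0.059) and ran from -0.30 to 0.036 with 1 library left out, and PTGES3 from -0.17 to 0.51. The share of HSP90AA1 in cytosolic HSP90 counts changed by -45.4 to -38.9 percentage points with 1 library left out and by -38.9 per kilobase of transcript. For all of these settings the cause was not tested. The labels number the replicates without saying that numbers pair them. Same-numbered libraries deviated with a correlation of -0.096 across genes, and a replicate block gave 4 lower and 0 higher members and 2289 lower and 1721 higher genes in all. With 2 libraries per group, a member that did not pass may still have changed.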
